A study of Mus musculus with 248 samples.

Results

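The genes described here are 42 interferon-stimulated genes, followed in blood of mice that carry or lack the Cbfb-MYH11 (CM) leukemia fusion. The members are listed by gene symbol. The rule that finds their rows uses no measured value, but the list was drawn up with earlier results of these data known. Of the 42 symbols, 41 were matched to a row among 18508 genes of the training table and 40 to a row among 13607 genes of the validation table. Psmb9 was matched in neither table and is not analysed here, and Ifi44 was matched in the training table only. CM mice were C57BL/6 animals of genotype Cbfb+/56M/Mx1-Cre, in which Cre recombinase switches on the inversion fusion allele. Control (Ctrl) mice were littermates that were wild-type or carried only the Cbfb+/56M allele or only Mx1-Cre. All mice of both arms, the controls included, received poly(I:C), a synthetic double-stranded RNA, at 14 mg/kg every other day for 7 doses at an age of 4 to 8 weeks. Blood (labelled PBMC) was taken before the doses (month 0) and about monthly afterwards, and leukemia was called at more than 20% cKit+ blasts. The training cohort held 7 CM mice (55 libraries) and 7 Ctrl mice (77 libraries), the validation cohort 13 CM mice (68 libraries) and 8 Ctrl mice (48 libraries). In 6 validation mice 1 library is labelled as leukemia. No training library carries such a label, so the last library of each of the 7 training CM mice was used. As a model the design has a limit that bears on these genes: Cre is driven by the Mx1 promoter, itself interferon-responsive, and the agent that induced the fusion is an interferon inducer. CM and Ctrl mice did not differ in exposure to poly(I:C). They differed in the fusion and, for controls that were wild-type or carried only the Cbfb+/56M allele, also in Mx1-Cre. The control genotypes were not separated in the comparisons.

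Interferon-stimulated genes are switched on when type I interferon binds its receptor, IFNAR1 with IFNAR2, on the cell surface. The receptor's kinases JAK1 and TYK2 phosphorylate STAT2, which acts with IRF9 in the complex ISGF3 at a promoter element called the interferon-stimulated response element. The products of these genes block viral entry, replication and translation, sense viral nucleic acid or raise antigen presentation, while USP18 shuts the receptor down and IRF7 amplifies interferon production. Blood leukocytes carry a resting level of this program, and double-stranded RNA raises it through the sensors TLR3 and MDA5 (encoded by Ifih1).

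Promoter sequences are shown because part of the members hold a binding element that the choice by symbol did not use. RefSeq promoters (GRCm38.p6, 250 bases before to 50 bases after each start) were found for 31 of the 42 members. The motif searched was GAAANNGAAA, or TTTCNNTTTC on the other strand, the core of the interferon-stimulated response element, with overlapping matches counted. It was present in 13 of the 31 members (41.9%), against 3.99% of all 27025 genes in the promoter table. The 13 were Rsad2, Isg15, Ifit1, Ifit3, Oas1a, Oas3, Stat2, Bst2, Ifih1, Ddx58, Eif2ak2, Gbp2 and Gbp3. Isg20 held no match in its 3 promoters, and Ifit2, Irf7 and Lgals3bp held none either. The 4 promoters printed below were taken from the 13. A match is a description of letters and not a test of binding, and 300 bases leave out more distant elements. The 250 bases before the start are printed 5′ to 3′ on the gene's strand for 4 effector genes that recur below, with the motif in capitals: Isg15 (chr4:156200819-156201068, minus strand), with 3 overlapping matches; Rsad2 (chr12:26456453-26456702, minus strand), with 1; Ifit3 (chr19:34583279-34583528, plus strand), with 2; and Ifit1 (chr19:34640639-34640888, plus strand), with 2.
Isg15: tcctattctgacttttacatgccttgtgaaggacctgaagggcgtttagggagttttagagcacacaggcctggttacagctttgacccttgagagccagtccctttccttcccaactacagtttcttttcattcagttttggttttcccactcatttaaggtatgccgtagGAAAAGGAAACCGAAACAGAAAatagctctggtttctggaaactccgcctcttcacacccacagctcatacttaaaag
Rsad2: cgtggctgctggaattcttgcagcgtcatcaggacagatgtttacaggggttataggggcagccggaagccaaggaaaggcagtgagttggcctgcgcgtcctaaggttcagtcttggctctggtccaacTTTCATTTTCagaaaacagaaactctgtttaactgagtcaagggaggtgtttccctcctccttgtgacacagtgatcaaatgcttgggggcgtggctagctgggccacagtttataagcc
Ifit3: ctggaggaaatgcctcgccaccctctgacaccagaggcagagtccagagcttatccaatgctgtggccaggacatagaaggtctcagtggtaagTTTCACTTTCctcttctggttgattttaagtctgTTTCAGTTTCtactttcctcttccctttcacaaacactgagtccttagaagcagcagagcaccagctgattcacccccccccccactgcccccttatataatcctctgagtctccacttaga
Ifit1: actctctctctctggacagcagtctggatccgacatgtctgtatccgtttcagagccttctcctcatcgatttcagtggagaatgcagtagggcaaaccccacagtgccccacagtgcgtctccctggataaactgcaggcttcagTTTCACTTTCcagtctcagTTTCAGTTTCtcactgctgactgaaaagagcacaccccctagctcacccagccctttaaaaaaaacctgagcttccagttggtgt
The distance from motif to gene start differed among the 4, from the matches in Isg15 at -78, -72 and -66 to those in Ifit3 at -156 and -122, counted in bases from the start that the promoter table uses. For Ifit3 that start lies inside the outer bounds that RefSeq gives the gene, whose outermost start is upstream of the bases printed. Ifit1 held its matches at -104 and -85, and Rsad2 held its match at -120.

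Recovered depth was 16 to 36.3 M reads per training library and 8.68 to 34.4 M reads per validation library, where M is the SI prefix mega. Levels are in log2 CPM, the log2 of a gene's reads after scaling every library to the same total, and a gene is called changed at a Benjamini-Hochberg adjusted p under 0.05 from limma over all genes of the table. Hemoglobin transcripts took from 0.391% to 49.8% of the reads in training Ctrl libraries, and 0.334% to 10.3% in validation Ctrl libraries. A large hemoglobin share lowers the CPM of all other genes, so a 2nd scaling by median ratios is given where it ends a call or moves a named value by over 1.5 times. Months 0 and 1 of the validation cohort and its leukemia libraries came from 3 different sequencing runs, which cannot be told apart from time within a mouse, whereas the arms were run together. The labels give an unstranded preparation for months 0 and 1 and the leukemia libraries, and a stranded one for months 2 to 6 and the weekly libraries. Libraries of the training cohort were spread over 7 sequencing batches.

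The labels of 2 validation CM mice went against genes of the table. In the 7 libraries labelled CM of mouse 2700 the transcript listed as MHY11 ran from -6.30 to 0.053 log2 CPM. In the 61 other CM libraries it ran from 2.79 to 5.39. At month 0, before induction, it ran from 3.52 to 4.02 in CM mice other than 2700. It also ran from 2.61 to 3.82 in the 14 control libraries labelled HW, so its presence does not mark the induced fusion alone. The month 0 library of mouse 2731, labelled F, had Xist at 1.24 and the Y-linked Ddx3y at 5.21, and the later libraries of that mouse had Ddx3y at -4.29 to -2.35. Libraries labelled M had Ddx3y at 6.44 to 8.04, and the 53 other libraries labelled F had it at -6.30 to 4.06 with a median of -4.34. Without both mice the validation counts given below changed to 12 members for the arms at month 1, 15 for month 1 against month 0 in CM mice, 9 for the change between arms and 35 for leukemia against month 0. Outside the leukemia comparison the calls lost were Samd9l at month 1 (adjusted p = 0.087), Parp9 within CM mice (adjusted p = 0.074) and Ddx58 in the change between arms (adjusted p = 0.068). At leukemia 34 members remained lower and 1 higher, against 36 lower and 1 higher with both mice.

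Before poly(I:C) no single member differed between the arms beyond the spread between mice. In the training cohort 0 of 41 members were called at month 0 (3 were higher at an unadjusted p under 0.05), beside 0.0054% of all genes. The validation count was 0 of 40 (0 at an unadjusted p under 0.05), beside 0% of all genes. With voom weights on the recovered reads the count was also 0 in both cohorts. In the training cohort 33 of 41 members had a difference above 0. The median log2 difference there was 0.17 over members and -0.04 over all genes (0.23 and 0.02 with median-ratio scaling). In the validation cohort 19 of 40 were above 0, with medians of -0.006 and 0.008. Rsad2, which encodes the antiviral radical enzyme viperin, stood at 7.88 ± 0.22 log2 CPM (SD, n = 7) in training CM mice and 7.56 ± 0.42 (SD, n = 7) in training controls. Mx1, a dynamin-like GTPase that blocks influenza replication, stood at 4.78 ± 0.27 and 4.59 ± 0.39 log2 CPM in the same groups. The ranges of the 2 arms overlapped for every member at month 0 in the training cohort.

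Per kilobase of transcript, resting levels at month 0 in training controls differed widely among the members. Ly6e, a lipid-anchored surface protein that modulates viral entry, was the most abundant at 593.5 ± 26.4 RPKM, the reads per kilobase of transcript after scaling to library size (SD, n = 7). Sp100, a nuclear body protein, followed at 63.9 ± 10.2, Psmb8, a catalytic subunit of the immunoproteasome, at 61.9 ± 4.87 and Samd9l at 59.6 ± 12.1, and these 3 did not differ beyond their spread. Rsad2 stood at 45.2 ± 12.9, Stat2 at 32.2 ± 4.34, Irf9 at 29.3 ± 3.58 and Irf7 at 27.2 ± 4.15, so neighbouring members of this order overlapped. Mx1 at 6.80 ± 1.76 and Ifit1 at 3.59 ± 1.21 lay near the bottom, and Ifi44 was the lowest at 0.082 ± 0.0357. In validation controls Ly6e was again the highest at 204.8 ± 34.4, with Rsad2 next at 139.7 ± 104.1 (SD, n = 6), a value whose spread between mice was nearly as large as its mean.

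One month after poly(I:C) no member of the resting program of training controls was called changed from its starting level. The error of that fit is the scatter within mice over all control months. For Stat2 it gave an SE of 0.33, beside SDs of 0.19 at month 0 and 0.13 at month 1. Of 41 members 0 were called at month 1 against month 0 (0 at an unadjusted p under 0.05), beside 0% of all genes and 214 genes at an unadjusted p under 0.05 (3 genes with voom). Rsad2 in the 7 Ctrl mice was 7.58, 6.90, 8.08, 8.06, 7.29, 7.42 and 7.59 log2 CPM at month 0. The same mice in the same order gave 8.39, 7.05, 7.30, 7.76, 7.38, 8.14 and 6.65 at month 1, which overlap with no common direction. Oas2, an enzyme whose oligoadenylate product activates RNase L, had a mean of 5.22 ± 0.50 log2 CPM at month 0 and 5.28 ± 1.04 at month 1. The wider spread of Oas2 came from Ctrl mouse 3342, which rose from 4.99 to 7.09, and Ctrl mouse 3346, which rose from 5.18 to 6.32, while Oas2 fell in 4 of the other 5 mice. At month 2 of the training controls 0 members were called (4 were lower at an unadjusted p under 0.05), beside 0.562% of all genes, in the fit whose spread is shared by all control months. Lower than at month 0 in 7 of 7 mice were 10 members, beside 13.9% of all genes, and 0 members were higher in all 7. A fit to the libraries of months 0 and 2 alone, chosen after the data were seen, called 8 members lower and 0 higher, beside 17.7% of all genes. They were Oasl2 (-0.71 ± 0.11, SE), Ifit3 (-0.59 ± 0.11), Oas2 (-0.58 ± 0.15), Oas3 (-0.57 ± 0.05), Rtp4 (-0.56 ± 0.11), Mx1 (-0.42 ± 0.12), Herc6 (-0.39 ± 0.10) and Cmpk2 (-0.38 ± 0.08). Oas3 fell by 0.47 to 0.80 in every mouse. In that fit the median log2 change was -0.20 over the members and -0.09 over all genes. The same fit at month 1 called 0 members.

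In validation controls 12 of 40 members differed between months 1 and 0, beside 33.3% of all genes, and month cannot be told apart from sequencing run there. Ly6e (0.97 ± 0.10, SE), Stat2 (0.41 ± 0.09), Trim25 (0.26 ± 0.08) and Parp14 (0.24 ± 0.07) were higher at month 1 on the log2 scale. The 8 lower members were Ifit2 (-0.63), Ifit1 (-0.61), Isg15 (-0.60), Ifit3 (-0.59), Mx2 (-0.53), Bst2 (-0.45), Parp9 (-0.33) and Herc6 (-0.28). The 3 IFIT proteins bind viral RNA and Bst2 (tetherin) holds budding virions at the cell surface. The share of members called was close to that of all genes. The count fell to 6 when Ctrl mouse 2689 was left out, and it was 3 when the replicate block was dropped. With median-ratio scaling 2 members were higher and 11 lower, beside 30.4% of all genes in either direction. On that scale Parp14 (0.11, adjusted p = 0.12) and Trim25 (0.13, adjusted p = 0.26) were no longer called, and Oas1a (-0.49), Usp18 (-0.23) and Irf7 (-0.18) were.

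One month after induction 3 effector genes were higher in CM blood than in control blood in both cohorts: Rsad2, the ubiquitin-like modifier Isg15 and the exonuclease Isg20. The secreted glycoprotein gene Lgals3bp also rose in both, by a smaller amount. In the training cohort 4 of 41 members were called, all higher, beside 5.02% of all genes. The median log2 difference was -0.29 over the 41 members and -0.18 over all genes. Of 40 validation members 13 were called, 9 higher and 4 lower, beside 28.5% of all genes. The 4 called in the training cohort were all among the 9, and 27 members were called in neither cohort. Without Ctrl mouse 3350 the training count was 2.

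Rsad2 in the 7 training CM mice stood at 9.11, 12.50, 10.36, 9.99, 10.30, 12.04 and 9.88 log2 CPM at month 1. Control values ran from 6.65 to 8.39, so the arms did not overlap and even the lowest CM mouse, 3334, lay above every control. The difference was 3.03 ± 0.49 (SE; limma, adjusted p = 0.0025). Validation values of Rsad2 ran from 9.19 through a median of 10.91 to 11.65 in 10 CM mice, and from 7.81 through 8.32 to 9.46 in 6 controls. The difference there was 2.34 ± 0.39 (SE; limma, adjusted p = 0.0042), with all 10 CM mice above the control mean.

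Isg15 in the training CM mice, in the same order, stood at 3.86, 7.32, 5.67, 5.0, 5.02, 6.92 and 5.25 log2 CPM at month 1. Controls ran from 2.64 to 4.05, so only mouse 3334 lay within the control range. The difference was 2.39 ± 0.47 (SE; limma, adjusted p = 0.0088) in the training cohort. Validation values of Isg15 ran from 3.98 through 5.49 to 6.43 in CM mice and from 2.76 through 3.40 to 4.23 in controls, a difference of 1.94 ± 0.39 (SE; adjusted p = 0.0054). Isg20 ran from 6.23 through 6.86 to 9.09 in training CM mice and from 4.70 through 5.43 to 5.89 in controls, with no overlap. Its differences were 2.06 ± 0.44 (SE; adjusted p = 0.016) in the training cohort and 1.40 ± 0.25 (SE; adjusted p = 0.0042) in the validation cohort. Lgals3bp was higher by 0.70 ± 0.18 (SE; adjusted p = 0.036) and 0.74 ± 0.17 (SE; adjusted p = 0.0083). With median-ratio scaling its training difference of 0.88 missed the threshold (adjusted p = 0.058).

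The smaller changes were called in the validation cohort alone. Oas3 (0.79 ± 0.25, SE), Ifit1 (0.76 ± 0.18), Irf7 (0.52 ± 0.18), Ifit2 (0.47 ± 0.12) and Herc6 (0.44 ± 0.12), an E3 ligase for ISG15, were higher in CM mice. Trim25, an E3 ligase that activates RIG-I, was lower by a log2 difference of -0.47 ± 0.11, Sp100 of -0.31 ± 0.07, Samd9l of -0.28 ± 0.10 and Ddx58, which encodes RIG-I, of -0.24 ± 0.07. Mx1 was not called in either cohort at month 1, with means of 3.59 ± 0.64 in CM and 4.13 ± 0.18 in Ctrl mice of the training cohort and 4.67 ± 0.54 and 4.59 ± 0.23 in the validation cohort. With median-ratio scaling Samd9l (-0.18, adjusted p = 0.14) and Ddx58 (-0.14, adjusted p = 0.068) were no longer called. Stat2 likewise missed the threshold on log2 CPM, at 6.49 ± 0.47 and 7.04 ± 0.13 in the training cohort and 6.51 ± 0.42 and 6.65 ± 0.20 in the validation cohort. With median-ratio scaling it was called lower in training CM mice, by a log2 difference of -0.37 (adjusted p = 0.030).

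**Figure D1:**
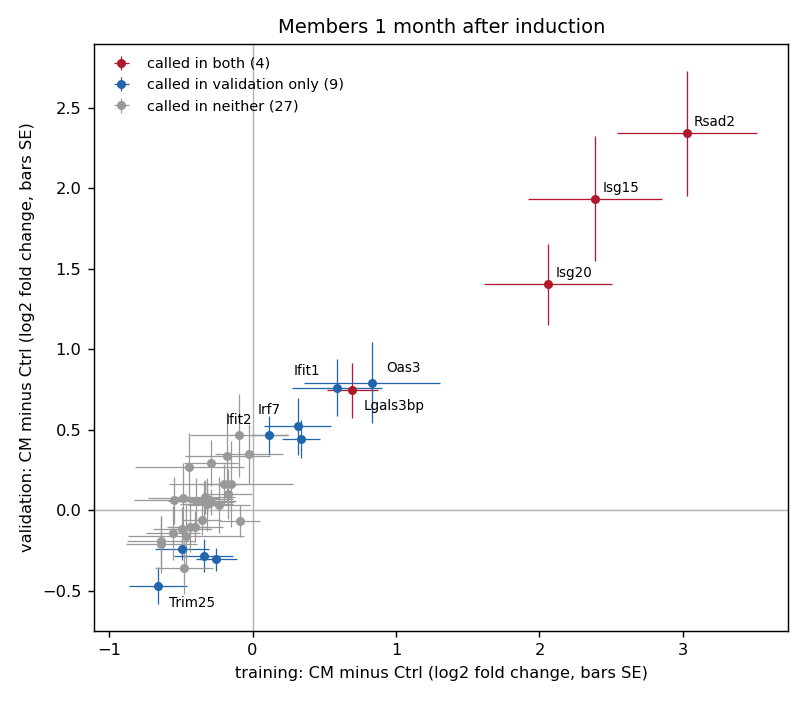
Log2 difference between CM and Ctrl mice at month 1 for each member, training cohort on the horizontal axis and validation cohort on the vertical axis (bars are SE). Members called in both cohorts, in the validation cohort only or in neither differ in colour. Rsad2, Isg15 and Isg20 stand apart at the upper right, at 3.03, 2.39 and 2.06 in the training cohort, while the other members lie between -1 and 1 in both cohorts.

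The same 3 genes moved with red cell RNA. At month 1 all 7 red cell precursor markers were higher in CM mice in both cohorts, with a median log2 difference of 3.33 (training) and 2.22 (validation). Among them were the erythroid transcription factor Klf1 (5.60 ± 0.73 and 3.08 ± 0.74, SE) and the ammonium channel gene Rhag (4.07 ± 0.52 and 2.62 ± 0.51). Hemoglobin transcripts took 1.53% to 16.6% of reads in training CM mice against 0.426% to 1.35% in controls, and 1.78% to 5.54% against 0.673% to 1.83% in the validation cohort. Platelet markers were higher for 8 of 9 genes in both cohorts, with medians of 1.13 and 1.01. Of the 10 stem and progenitor markers, 5 were higher in the training cohort and 7 in the validation cohort, Kit among them. NK cell markers were lower for 6 of 10 genes and 8 of 10 genes.

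Across the control libraries the levels of the 3 genes followed the mean log2 CPM of the 7 red cell markers. None of these libraries came from mice with both the fusion allele and Mx1-Cre. Over 77 training Ctrl libraries of 7 mice Pearson's r was 0.986 for Rsad2, 0.945 for Isg15 and 0.993 for Isg20. Over 48 validation Ctrl libraries r was 0.965, 0.791 and 0.978 in the same order. The libraries share mice and the scaling to total reads, so these are descriptions and carry no p. For the 41 members the median r was -0.79 in the training cohort, and the next highest member was Ifit2 at 0.586. With median-ratio scaling the training median r was -0.25 and 7 members had an r above 0.8, Ifit2 (0.853), Herc6 (0.850), Lgals3bp (0.849) and Oas3 (0.812) besides the 3. On that scale 3 members had an r above 0.8 in the validation cohort, with Lgals3bp next at 0.45. The red cell marker mean was then added to the model as a covariate, an alternative chosen after the data were seen. With it 0 members were called at month 1 in either cohort. The covariate itself was higher in CM mice at month 1, so arm and red cell RNA cannot be told apart in this model. The training Rsad2 difference was then -0.27 (adjusted p = 0.60), that of Isg15 -0.47 (adjusted p = 0.62) and that of Isg20 -0.84 (adjusted p = 0.45). The validation differences were 0.066 for Rsad2, -0.28 for Isg15 and 0.027 for Isg20 (adjusted p = 1 each). In bulk blood, more cells of a type and more RNA per cell cannot be told apart.

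**Figure D2:**
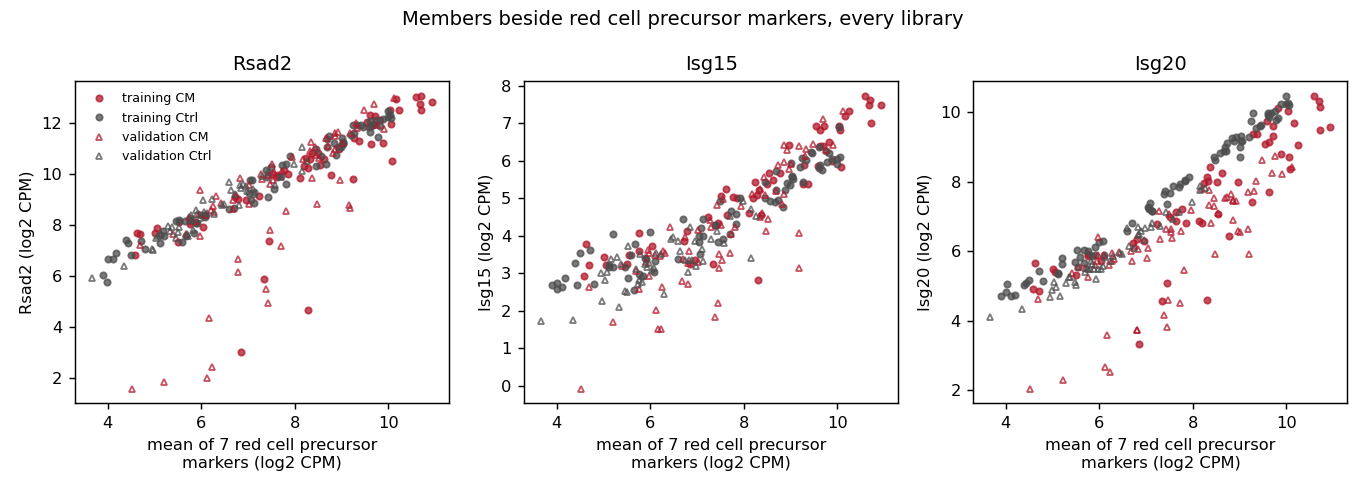
Level of Rsad2, Isg15 and Isg20 in each library (vertical axes, log2 CPM) against the mean of the 7 red cell precursor markers (horizontal axes, log2 CPM), by arm and cohort. Rsad2, Isg15 and Isg20 climb with the red cell markers in Ctrl libraries, with r of 0.986, 0.945 and 0.993 in the training cohort. Some CM libraries lie below the controls at the same red cell marker mean.

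The change of each mouse from month 0 to month 1 was compared between the arms as well. In the training cohort the change differed between the arms for 3 of 41 members, beside 1.2% of all genes: Rsad2 by 2.71 ± 0.46 (SE; adjusted p = 0.0094), Isg15 by 2.0 ± 0.45 (adjusted p = 0.042) and Isg20 by 1.90 ± 0.42 (adjusted p = 0.042). The validation change differed for 10 of 40 members, beside 12.5% of all genes. The validation differences were 2.67 ± 0.41 for Rsad2, 2.23 ± 0.29 for Isg15 and 1.59 ± 0.34 for Isg20 (SE). They were smaller for Oas3 (0.94), Ifit1 (0.84), Lgals3bp (0.81), Irf7 (0.56) and Herc6 (0.56), and below 0 for Ddx58 (-0.28) and Sp100 (-0.28). The training count was 0 without Ctrl mouse 3350 and 1 without mouse 3335, 3338, 3339, 3340, 3346, 3349, 3368 or 3370, and the validation count was 6 without Ctrl mouse 2683. With median-ratio scaling 2 training members were called, beside 0.848% of all genes: Rsad2 and, lower in CM mice, Mx2 (-0.70, adjusted p = 0.024). Isg15 (2.11, adjusted p = 0.13) and Isg20 (2.0, adjusted p = 0.14) were not called on that scale, nor in the validation cohort were Ddx58 (-0.17, adjusted p = 0.16) and Sp100 (-0.17, adjusted p = 0.12). The validation arms shared their sequencing runs at each month, so a run effect common to both arms does not enter these values.

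Within CM mice these 3 genes rose while 5 of 18 effector genes fell in the training cohort. In training CM mice 13 of 41 members changed between month 0 and month 1, beside 6.12% of all genes. Rsad2 (2.71 ± 0.33, SE), Isg15 (2.03 ± 0.34) and Isg20 (1.89 ± 0.30) rose in 7 of 7 mice. The 10 that fell included Mx2 (-1.31 ± 0.21), Mx1 (-1.19 ± 0.20), the chaperone-like Rtp4 (-0.90 ± 0.19), Oas2 (-0.90 ± 0.22), the nucleotide kinase Cmpk2 (-0.86 ± 0.16), Oasl1 (-0.82 ± 0.21), Parp14 (-0.70 ± 0.17) and the feedback protease Usp18 (-0.66 ± 0.15). With median-ratio scaling Oas2 (-0.69, adjusted p = 0.17), Oasl1 (-0.60, adjusted p = 0.10), Cmpk2 (-0.65, adjusted p = 0.055) and Irf9 (-0.34, adjusted p = 0.085) were no longer called. Ifit3 (-0.75) and Stat2 (-0.37) were then lower and Ifi44 (0.91) and Lgals3bp (0.69) higher. Mx1 went from 4.41 to 5.14 log2 CPM at month 0 to between 2.46 and 4.07 at month 1, with no overlap, and mice 3336 and 3368 had the lowest values at 2.46 and 2.95. These 2 mice also had the highest Rsad2 of the 7. The count was 6 without mouse 3336, 3357 or 3368 and 8 without mouse 3338 or 3341. In validation CM mice 14 of 40 members changed, beside 42.8% of all genes: 8 rose, led by Rsad2 (2.15 ± 0.28), Isg15 (1.63 ± 0.22), Isg20 (1.08 ± 0.21), Oas3 (0.98 ± 0.13), Lgals3bp (0.80 ± 0.12), Ly6e (0.57 ± 0.12), Irf7 (0.51 ± 0.10) and Herc6 (0.28 ± 0.06). The 6 that fell were Mx2 (-0.67 ± 0.17), Ifit3 (-0.46 ± 0.15), Sp100 (-0.30 ± 0.04), Parp9 (-0.29 ± 0.09), Samd9l (-0.27 ± 0.07) and Ddx58 (-0.20 ± 0.05).

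Other genes of the pathway showed little at month 1. Of 43 other interferon-stimulated genes in the training cohort 2 were higher, Ube2l6 (2.25 ± 0.51, SE), the conjugating enzyme of ISG15, and the pyrimidine nucleotidase Nt5c3 (1.59 ± 0.33), and 0 were lower. Both were higher in the validation cohort too, by 1.60 ± 0.29 and 1.24 ± 0.25, and there Ifi203 (-0.25) and Trim12a (-0.24) were lower. None of the 8 receptor and Janus kinase genes was called in the training cohort. Validation CM mice had lower Ifnar1 (-0.26 ± 0.06) and Jak1 (-0.28 ± 0.08), and lower Irf2 (-0.56), Irf4 (-0.46) and Irf8 (-0.39). Of the interferon genes listed only Ifng was in the tables, and it was lower in validation CM mice by a log2 difference of -0.97 ± 0.20.

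From month 2 on few members separated the arms. At month 2 of the training cohort 8 of 41 were called, beside 11.7% of all genes. Ifit1 (0.88 ± 0.27, SE), Lgals3bp (0.81 ± 0.22), Ifit2 (0.69 ± 0.19) and the GTPase gene Gbp2 (0.48 ± 0.14) were higher in 7 of 7 CM mice than the control mean. Mx2 (-0.77 ± 0.22), Trim25 (-0.54 ± 0.14), Cmpk2 (-0.49 ± 0.14) and Ly6e (-0.38 ± 0.12) were lower. With median-ratio scaling Cmpk2 (adjusted p = 0.10) and Ly6e (adjusted p = 0.074) were no longer called, while Stat2 (-0.37) was lower and Ifi44 (1.08) higher. Rsad2 had a difference of 1.60 that missed the threshold (adjusted p = 0.069). Genes of the interferon gamma list were higher too, with Iigp1 at 1.41 ± 0.19, Gbp8 at 1.08 ± 0.19, Igtp at 0.71 ± 0.21 and Gbp7 at 0.59 ± 0.12. All 12 T cell markers were higher in the same comparison, with a median of 1.23, and their part in these differences was not tested. With the red cell covariate, or with all months in 1 model, 0 members were called at month 2. The count was 1 or 2 without mouse 3334, 3335, 3339, 3340, 3346, 3349 or 3350, and 5 without mouse 3342, 3357 or 3368.

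At month 3 of the training cohort 1 member was called, Oas3, higher by 1.14 ± 0.22 (SE; limma, adjusted p = 0.032), beside 0.632% of all genes. It was called with neither median-ratio scaling (0 members, beside 0.767% of all genes) nor the red cell covariate, and not without mouse 3335, 3339, 3340, 3349, 3350, 3368 or 3370. At months 4, 5 and 6 the count was 0 of 41, beside 0.0054%, 0% and 0.0162% of all genes. At an unadjusted p under 0.05 the counts were 0, 9 and 1, and with voom weights the adjusted count was 0 at each. Without Ctrl mouse 3335 the count at month 5 was 3. Of 40 validation members 0 were called at months 2, 3, 4, 5 and 6, beside 0.147%, 0%, 0%, 0% and 0% of all genes. At an unadjusted p under 0.05 the validation counts were 4, 4, 0, 0 and 2 in that order, and with voom weights 0. These months mixed CM mice without and with leukemia signs: at month 4 of the training cohort Rsad2 had an SD of 3.40 over 7 CM mice and of 1.45 over 7 controls.

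At leukemia nearly all members were lower than before induction. In the validation cohort 36 of 40 members were lower and 1 was higher in the leukemia library than at month 0 of the same 6 mice, beside 64.5% of all genes called in either direction. The median log2 change was -2.0 over the members and -0.04 over all genes. Of the effector genes 17 of 18 fell, with a median change of -3.07, as did 4 of 4 transcription and feedback genes, 4 of 5 nucleic acid sensors, 3 of 4 ubiquitin and ADP-ribose transfer genes and 3 of 3 guanylate-binding and immunoproteasome genes. Measured from month 1, after poly(I:C), 35 of 40 members were lower and 0 higher, beside 63.3% of all genes, with a median of -2.29 against -0.08. Both comparisons use the same leukemia libraries, which came from another sequencing run than the earlier months.

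Of the effectors, Ifit3 ran from 3.98 through a median of 4.06 to 5.34 log2 CPM at month 0 in these 6 mice. In the leukemia libraries it ran from -2.64 through -1.28 to 0.23, with no overlap, a change of -5.54 ± 0.40 (SE; limma, adjusted p = 1.3e-05). The highest month 0 value came from mouse 2731, and without it and mouse 2700 the change was -5.56. Oas2 went from between 4.30 and 4.99 to between -6.30, the value of a gene with 0 reads, and 2.61 (-5.68 ± 0.97). Mx1 went from between 4.19 and 5.59 to between -6.30 and 2.70 (-4.68 ± 1.11). In mouse 2718 both Oas2 and Mx1 had 0 reads at leukemia, so the size of their mean fold rests partly on the value given to 0 reads. Rsad2 fell in 6 of 6 mice, from a median of 8.65 to a median of 3.39 (-4.99 ± 0.67), and its highest leukemia value, 8.66 in mouse 2731, lay within the month 0 range. Ifit1 (-4.42 ± 0.41), Rtp4 (-3.92 ± 0.40), Ifit2 (-3.61 ± 0.30) and Oasl2 (-3.34 ± 0.38) fell in 6 of 6 mice. Isg15 fell by a log2 change of -2.35 ± 0.37 and Bst2 of -1.85 ± 0.15, both without overlap.

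The 4 transcription and feedback members changed by different amounts. Irf7 ran from 6.26 through 6.67 to 6.95 log2 CPM at month 0 and from 3.39 through 3.70 to 4.83 at leukemia, with no overlap, a change of -2.66 ± 0.18 (SE; adjusted p = 8.9e-06). Stat2 went from between 5.81 and 6.45 to between 5.14 and 5.57 (-0.89 ± 0.14), and Irf9 changed by -0.77 ± 0.11. Usp18 changed by -3.03 ± 0.25. Among the sensors Zbp1, which binds left-handed nucleic acid, changed by -2.26 ± 0.44, Ddx58 by -1.67 ± 0.15, Trim25 by -1.37 ± 0.18 and Dhx58 by -1.32 ± 0.19. Ifih1, at -0.05 ± 0.17, was not called. Psmb8 went from between 7.05 and 7.35 to between 5.80 and 6.74 (-1.06 ± 0.15). The other members not called were the kinase PKR gene Eif2ak2 (0.03 ± 0.11) and the E3 ligase gene Dtx3l (-0.26 ± 0.15). Ly6e alone rose, by 0.61 ± 0.18 (SE; adjusted p = 0.017), in 6 of 6 mice, from between 8.42 and 9.25 to between 9.0 and 9.75, with overlap. Against month 1 of the same mice the Ly6e difference was 0.02.

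**Figure D3:**
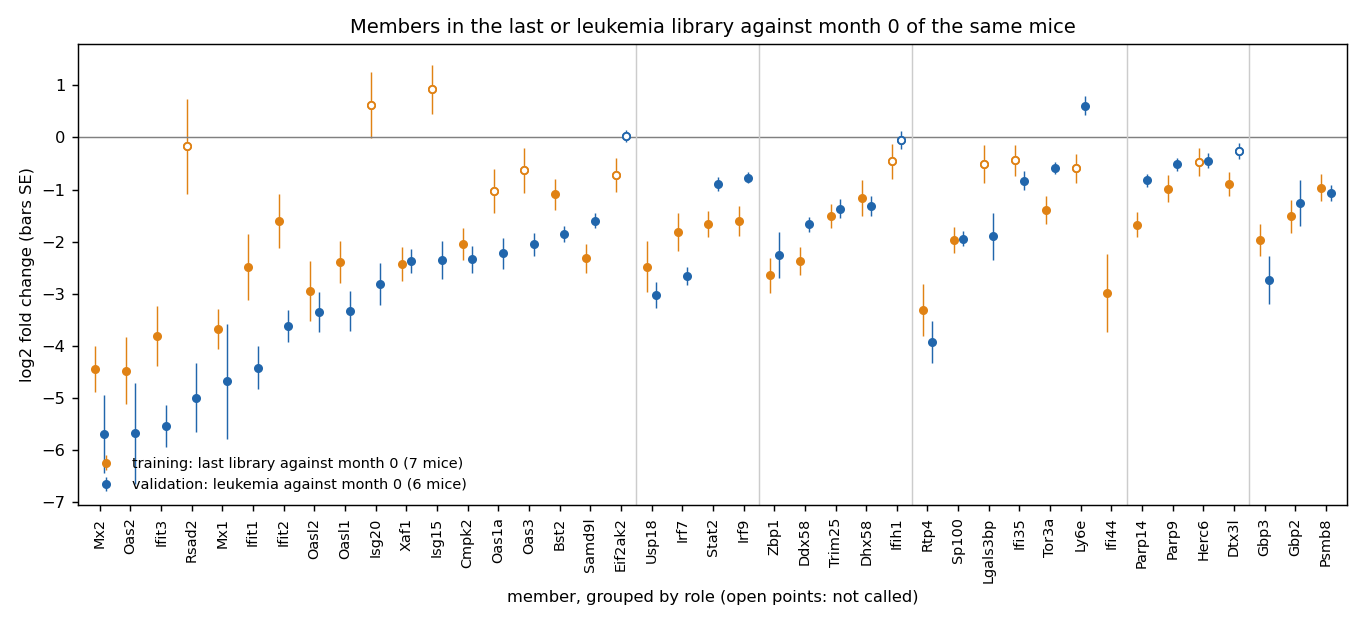
Log2 change of each member from month 0 to the last training CM library (n = 7 mice) and to the validation leukemia library (n = 6 mice), as fitted means with SE bars, grouped by role. Ifit3, Oas2, Mx2 and Mx1 lie among the lowest, as does Rsad2 in the validation cohort. Ifih1 and Eif2ak2 lie near 0 and Ly6e above it in the validation cohort. Open points were not called.

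The last training libraries moved the same way, with a larger spread between mice. Of 41 members 30 were lower and 0 higher than at month 0, beside 46% of all genes, and the median change was -1.60 over members and -0.57 over all genes. With median-ratio scaling those medians were -1.13 and -0.12, and 27 members were called, beside 50.1% of all genes. No longer called were Ifit1 (-2.01, adjusted p = 0.054), Ifit2 (-1.13, adjusted p = 0.18) and Dtx3l (-0.42, adjusted p = 0.076). Oas2 (-4.47 ± 0.65, SE), Mx2 (-4.44 ± 0.44), Ifit3 (-3.81 ± 0.58), Mx1 (-3.67 ± 0.38), Rtp4 (-3.31 ± 0.50), Oasl2 (-2.95 ± 0.58), Zbp1 (-2.65 ± 0.34) and Ifit1 (-2.48 ± 0.63) fell in 7 of 7 mice. Irf7 changed by -1.82 ± 0.36, Stat2 by -1.66 ± 0.25, Bst2 by -1.09 ± 0.30 and Psmb8 by -0.96 ± 0.26. By role, 12 of 18 effectors, 4 of 5 sensors, 4 of 4 transcription and feedback genes, 3 of 4 transferases, 3 of 3 guanylate-binding and immunoproteasome genes and 4 of 7 other members fell. The 11 members not called were Rsad2, Isg15, Isg20, Oas1a, Oas3, Eif2ak2, Ifih1, Ifi35, Herc6, Lgals3bp and Ly6e. Against month 1 of the same mice 30 members were lower and 0 higher, beside 43.8% of all genes. With median-ratio scaling 24 were lower, beside 50.4% of all genes.

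Rsad2 moved in opposite directions in different training mice. Its last value was 4.68, 5.88, 3.01 and 7.37 log2 CPM in mice 3334, 3336, 3338 and 3341, all below their month 0 values of 7.64 to 8.05. In mice 3357, 3368 and 3370 it was 11.96, 11.28 and 9.80, above their month 0 values. Hemoglobin took 0.213% to 0.541% of the reads in the last libraries of the first 4 mice and 10.9%, 21.7% and 4.66% in the other 3. The mean change was -0.17 ± 0.92 (SE; limma, adjusted p = 0.90). In mouse 3334 the red cell marker mean of the last library was 8.29 with Rsad2 at 4.68, while Ctrl mouse 3340 at month 9 had 8.45 with Rsad2 at 10.32. Mx1 fell in every mouse all the same, to 0.19, 1.09, 0.60, 0.19, 2.56, 1.19 and 1.91 from between 4.41 and 5.14.

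**Figure D4:**
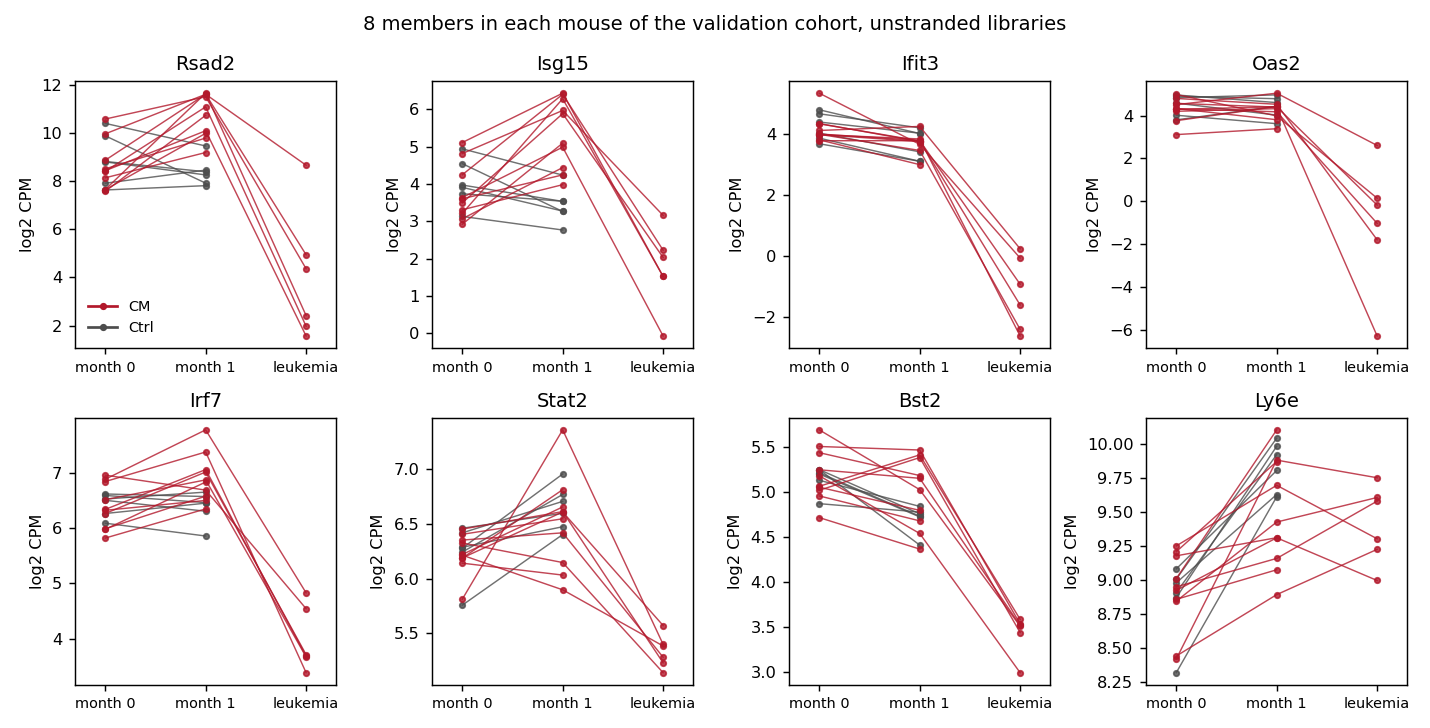
Rsad2, Isg15, Ifit3, Oas2, Irf7, Stat2, Bst2 and Ly6e in each validation mouse at month 0, month 1 and, for 6 CM mice, in the leukemia library (log2 CPM, vertical axes), with 1 line per mouse. Rsad2 and Isg15 climb from month 0 to month 1 in CM mice and drop at leukemia, and Ly6e ends above month 0 in 6 of 6 mice.

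The median over the members gives 1 value per library, as the median over members of the median-ratio scaled log2 CPM minus the Ctrl mean of the same preparation. The leukemia libraries were set against the unstranded Ctrl libraries of months 0 and 1, since their own sequencing run held no controls. Over all 77 training Ctrl libraries it ran from -0.56 to 0.65, and over 48 validation Ctrl libraries from -1.05 to 0.35. In the validation leukemia libraries it was -2.45, -1.08, -1.71, -2.19, -2.20 and -1.38 for mice 2684, 2690, 2708, 2718, 2719 and 2731, all below every control library. In the last training libraries it was -1.46, -1.65, -1.93 and -1.85 for mice 3334, 3336, 3338 and 3341 and -0.26, -0.18 and -0.27 for mice 3357, 3368 and 3370. Thus 4 of 7 training mice lay below every control library. Kit, the receptor carried by the blasts, had risen to 8.64, 8.51, 9.45 and 8.07 log2 CPM in the first 4 mice. It had risen to 6.61 and 7.16 in mice 3357 and 3370. In mouse 3368 Kit stood at 2.34, within the range of -1.97 to 4.95 of the training Ctrl libraries. At month 0 Kit had been between 1.34 and 3.26.

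The fall came late in single mice. In training mouse 3336 the value was -0.03 with Kit at 6.38 at month 6.5 and -1.65 with Kit at 8.51 at month 7. Mouse 3334 went from -0.36 (Kit 6.28) at month 6 to -1.46 (Kit 8.64) at month 6.5. Mouse 3338 went from 0.12 (Kit 6.90) at month 3 to -1.93 (Kit 9.45) at month 4, and mouse 3341 from -0.01 (Kit 5.68) at month 5 to -1.85 (Kit 8.07) at month 6. In these 4 mice Kit had thus already risen above every control library while the members' median still lay within the control range. In the validation cohort 3 monthly libraries before the leukemia library lay below every control: mouse 2719 at month 3 (-2.05, Kit 10.2), mouse 2731 at month 2 (-1.45, Kit 9.02) and mouse 2684 at month 4 (-1.30, Kit 7.28). These 3 libraries had the stranded preparation and the sequencing run of the controls of their month. Mouse 2690 stood at 0.82 at month 1 and 1.0 at month 2 before it reached -0.98 (Kit 8.57) at month 3.

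The 5 validation mice sampled by week had 1 library per mouse and week, so their values carry no test. CM mouse 3130 stood at -0.03 (Kit 5.62) at week 20, -0.96 (Kit 8.95) at week 24 and -1.81 (Kit 11.2) at week 25. CM mouse 3131 stood at 0.23 (Kit 3.35) at week 20, -0.67 (Kit 8.05) at week 24 and -1.68 (Kit 9.70) at week 28. CM mouse 3200 stood at -0.18 (Kit 5.43), -0.05 (Kit 6.44) and -1.16 (Kit 9.27) at weeks 10, 14 and 18. The 6 weekly libraries of Ctrl mice 3127 and 3202 stayed between -0.19 and 0.22. In each of the 3 CM mice the lowest value came in the last library, at the highest Kit.

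**Figure D5:**
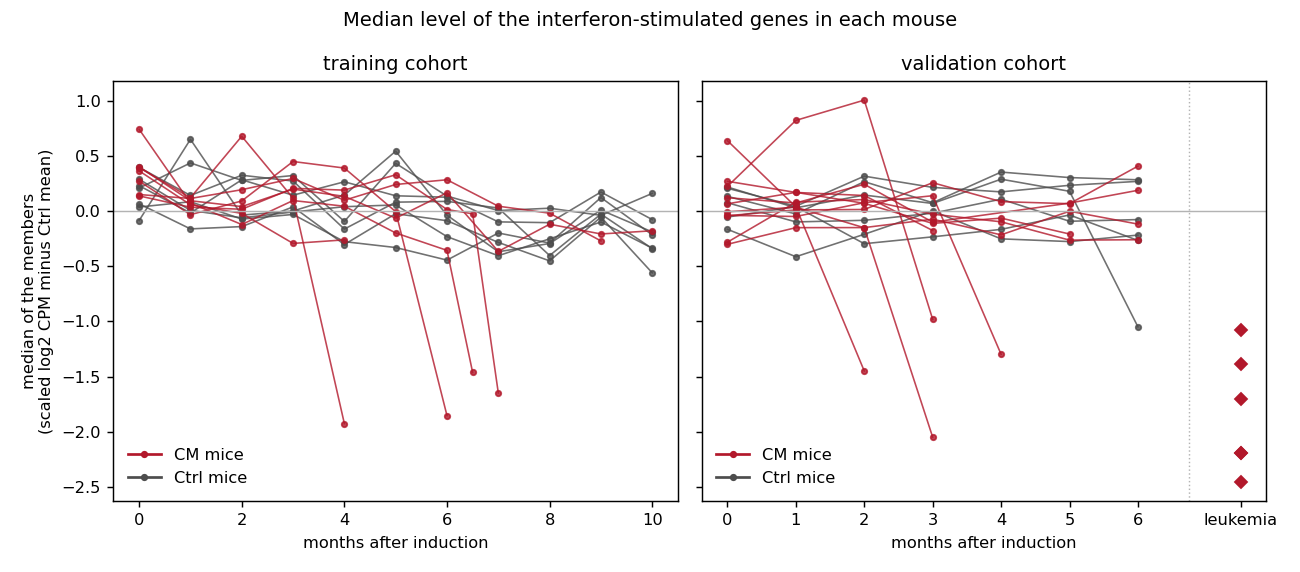
Median over the members (vertical axis, log2 difference from the Ctrl mean of the same preparation) by month after induction in every monthly library, with 1 line per mouse, for both cohorts, and as diamonds in the 6 leukemia libraries. Training Ctrl libraries stay between -0.56 and 0.65, and the late libraries of CM mice drop to as low as -1.93 (training) and -2.45 (validation).

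Markers of mature blood cells fell in the same libraries. In the validation leukemia libraries 10 of 10 B cell markers (median -4.82), 10 of 10 NK cell markers (-4.65) and 12 of 12 T cell markers (-1.92) were lower than at month 0, as were 7 of 8 plasmacytoid dendritic cell markers, 8 of 10 nonclassical monocyte and 7 of 13 neutrophil markers. In the last training libraries the counts were 10 of 10, 10 of 10, 12 of 12, 8 of 10, 5 of 10 and 8 of 13. Summed over the list, B cell markers took 2966 to 5319 CPM at month 0 of the 6 mice and 74.9 to 379 CPM at leukemia. NK cell markers took 417.5 to 749.5 CPM and then 30.3 to 93.1 CPM. Stem and progenitor markers rose from between 36.8 and 62.9 CPM to between 1471 and 9440 CPM. The part of these shifts in cell makeup in the fall of the members was not tested.

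Training controls were used to ask whether the late fall in CM mice exceeded the change of controls at late months. The last CM libraries came from different months in different mice. For each control the libraries of months 4, 6, 7, 9 and 10, the last months of the CM mice other than 3334, were averaged into 1 late value. Each CM mouse entered with its 1 last library. No CM mouse was matched to controls by month, and CM mouse 3334 ended at a month without control libraries. A difference in month therefore enters this comparison. The change from month 0 differed between the arms for 10 of 41 members, beside 38.1% of all genes, 9 lower and 1 higher in CM mice. The 9 were Rsad2 (-3.46 ± 1.10, SE), Isg20 (-2.77 ± 0.77), Ifit1 (-2.35 ± 0.74), Mx2 (-2.26 ± 0.49), Ifit2 (-2.14 ± 0.54), Oas2 (-2.14 ± 0.77), Ifit3 (-1.98 ± 0.61), Mx1 (-1.48 ± 0.46) and Irf7 (-1.41 ± 0.41). Ifih1 was higher by 1.17 ± 0.42, and with median-ratio scaling by 0.45 (adjusted p = 0.20). Median-ratio scaling, which removes the hemoglobin shift of the late controls, called 25 members, all lower in CM mice, beside 40.1% of all genes. Its median difference was -1.25 over members and -0.21 over all genes, against -0.53 and 0.45 without it. On log2 CPM the count was 1 without Ctrl mouse 3350, 2 without CM mouse 3334, 4 without Ctrl mouse 3349 and 21 without CM mouse 3368.

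In the last training and the leukemia libraries many other genes of the pathway were lower than at month 0. Of all 18508 training genes 6639 were lower and 1869 higher in that comparison. Of all 13607 validation genes 4494 were lower and 4278 higher. Irf8, the myeloid and dendritic cell factor, was lower in both cohorts, at -2.96 ± 0.30 (SE) in the last training and -4.07 ± 0.37 in the validation leukemia libraries. Irf4 was at -2.38 ± 0.27 and -2.67 ± 0.29. Of 8 receptor and Janus kinase genes 6 were lower in the training cohort, led by Ifnar1 (-1.58 ± 0.22). In the validation cohort 4 were lower, among them Ifnar1 (-0.98 ± 0.11), and 2 were higher, among them Jak2 (0.67 ± 0.11). Of the upstream sensors and adaptors 8 of 13 were lower and 1 higher in the training cohort, and 6 of 12 were lower and 4 higher in the validation cohort. The endosomal DNA sensor Tlr9 (-2.78 ± 0.31 and -3.69 ± 0.59) and its chaperone Unc93b1 (-2.32 ± 0.32 and -2.43 ± 0.35) led those that fell.

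Of the negative regulators 6 of 8 were lower in both cohorts, with Socs3 at -1.89 ± 0.55 and -1.62 ± 0.29, while Socs1, which blocks the Janus kinases, was higher in the validation cohort (1.93 ± 0.28). Of the interferon gamma list 12 of 19 and 12 of 17 genes were lower. These included the chemokine gene Cxcl10 (-3.66 ± 0.66 and -3.77 ± 1.10) and Ciita, the switch for MHC class II (-2.73 ± 0.32 and -3.85 ± 0.32). Ifng itself was lower by log2 changes of -2.23 ± 0.49 and -3.45 ± 0.89. Of the other interferon-stimulated genes 33 of 43 and 32 of 40 were lower and 2 were higher in each cohort, with Slfn4, a myeloid member of the schlafen family, at -4.03 ± 0.62 and -4.67 ± 0.67.

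Late training controls showed a different picture, in which Rsad2, Isg15 and Isg20 rose while most other members fell on the CPM scale. The hemoglobin share of reads had a median of 1.02% at month 0 and of 12.5%, 29.9%, 7.28%, 39.1%, 24.9% and 31.2% at months 4, 6, 7, 8, 9 and 10. At months 4, 6, 7, 8, 9 and 10 members called lower were 19, 34, 20, 34, 32 and 34 of 41, and members called higher 3, 4, 3, 4, 5 and 4. The shares of all genes called were 20.1%, 84.2%, 17.7%, 87.2%, 86.5% and 85.6% in the same order. The members' median change was close to that of all genes, for example -1.71 and -1.56 at month 6 and -2.54 and -2.29 at month 8. At month 3 Isg20 alone was called (1.59 ± 0.41, SE), beside 0.573% of all genes, and at month 5 Rsad2 (1.59 ± 0.45) and Isg20 (1.56 ± 0.41), beside 1.69%. Both months lost calls when mice were left out: Isg20 at month 3 without mouse 3339, 3340, 3342, 3346 or 3349, and at month 5 the count was 0 or 1 without any 1 of the 7. With median-ratio scaling 0 members were called at months 3 and 5, beside 0.33% and 1.32% of all genes. At month 4 the count was 5 without mouse 3350, 10 or 11 without mouse 3340 or 3339, and 14 without mouse 3346 or 3349. At month 7 it was 11 or 12 without mouse 3350, 3339 or 3342. Fits to the libraries of each month and month 0 alone called more members: 15 at month 3 (3 higher, beside 22.1% of all genes), 34 at month 4 (beside 54.4%) and 38 at month 7 (beside 70.8%). The 3 that were higher at month 3 were Rsad2 (1.68 ± 0.28), Isg20 (1.59 ± 0.20) and Isg15 (0.75 ± 0.20).

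Rsad2 had a mean of 11.47 ± 1.05 log2 CPM (SD, n = 7) at month 6, above its 7.56 ± 0.42 at month 0 by 3.91 ± 0.45 (SE; adjusted p = 2.6e-10). Its changes at months 4, 7, 8, 9 and 10 were 2.82, 3.25, 3.85, 3.82 and 3.58. Isg20 rose by 4.01 ± 0.41 and Isg15 by 2.55 ± 0.36 at month 6, in 7 of 7 mice each. Ifit2 was called higher at months 6, 8, 9 and 10 (0.75, 1.02, 1.35 and 1.21) and Lgals3bp at month 9 (0.94 ± 0.24). Mx1 fell from 4.59 ± 0.39 to 1.28 ± 1.39 at month 8, a change of -3.30 ± 0.42 that was -1.14 with median-ratio scaling. Oas2 fell from 5.22 ± 0.50 to 0.88 ± 1.75 at month 8, a change of -4.34 ± 0.55 that was -2.18 with that scaling. Stat2 stood at 7.14 ± 0.19 at month 0 and 4.27 ± 0.99 at month 8, and Bst2 at 4.22 ± 0.19 and 1.42 ± 0.92. Psmb8 stood at 7.40 ± 0.11 and 4.73 ± 0.80, and Ly6e at 10.41 ± 0.06 and 7.68 ± 0.84. Ifit3 stood at 3.70 ± 0.50 and 1.64 ± 0.38, and Irf7 at 6.35 ± 0.22 and 5.49 ± 0.70. All 7 red cell precursor and all 9 platelet markers were higher at month 6, with medians of 4.36 and 2.68.

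The scaling decides the size and for several members the sign of these late changes. With median-ratio scaling 10 members were higher and 16 lower at month 6, beside 25.4% and 23.8% of all genes (49.1% in either direction). The 10 were Isg20 (5.50), Rsad2 (5.40), Isg15 (4.04), Ifit2 (2.25), Oas3 (1.82), Lgals3bp (1.73), Ifit1 (1.65), Herc6 (1.08), Irf7 (0.98) and Dtx3l (0.57). The largest falls that remained were Irf9 (-1.07), Oas2 (-1.05) and Rtp4 (-0.96). At month 4 that scaling called 3 members higher and 4 lower (8.5% of all genes), and at month 7 it called 4 higher and 11 lower (11.6%). At months 8, 9 and 10 it called 10 higher each and 21, 18 and 21 lower, beside 63.5%, 64.5% and 56.3% of all genes in either direction.

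Over the 77 training Ctrl libraries the genes outside the lists that were most like the members' mean were Rnf213 (r = 0.974), Ssfa2 (0.973), Scarb2 (0.971), Ctage5 (0.970), Tmpo, Naip2, Iqgap1 and Cd300a (0.969 each). These values share the hemoglobin shift and come from 7 mice. With median-ratio scaling the 8 most alike were Glrx (0.808), Picalm (0.803), Aplp2 (0.791), Anxa2, Acer3, Ogfrl1, Mxd1 and Plscr1 (0.770).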

How the data were processed

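Total RNA of mouse peripheral blood was sequenced in bulk in 132 training and 116 validation libraries. The authors deposited log2 CPM values per gene for each cohort, made with STAR and featureCounts of Subread on GRCm38, per the submitters' processing notes, which give no versions. Read totals recovered from the low values made 100% of values whole within 0.01 reads, with 0.25 reads added before the log. All columns were mapped (0 left out).

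The deposited log2 CPM were tested in R 4.3.3 by limma (3.58.1), whose prior variance followed mean expression, two-sided, with Benjamini-Hochberg adjustment over all genes and a threshold of 0.05. Comparisons of the arms at 1 month used sex as a covariate. Comparisons within mice used the mouse as a replicate block, entered as a term of the model, since the same number in the labels is the same animal. In 1 fit over all training months of both arms the correlation of same-mouse libraries was 0.0343. Median-ratio scaling, voom weights on recovered reads, a filter at a mean log2 CPM of 1, a prior count of 2, all months in 1 model, leaving out each mouse, a red cell covariate and, for training controls, fits to the 2 months compared alone were alternatives. Training control months otherwise shared 1 fit over all months. Levels per length used the length of each gene's merged exons in the GENCODE annotation. The fit was tested on simulated data. Python 3.11.15, numpy 2.4.6, pandas 2.3.3 and matplotlib 3.10.9 made the levels and figures.

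The members, lists and tests were chosen with earlier results of these data known. Comparisons with at most 12 called members name all of them, others the 8 with the largest change in each direction with a mean log2 CPM above 1. Rsad2, Isg15, Mx1, Irf7, Stat2, Ifit3, Oas2, Bst2, Psmb8 and Ly6e are followed throughout, and other members are named to account for all 42. Up to 4 called genes are named per pathway list. For the arms, p-values measure the spread between mice of 1 colony. For comparisons within mice they measure the spread of the change between mice. In the shared fit of training control months they measure the scatter within mice over all those months.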

Additional observations from a re-analysis of the deposited data

Results flagged for a closer look

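In each group of 4 to 10 mice the most distant mouse was compared with the range of its group for the members' median and for 10 members followed throughout. A mouse lay beyond Dixon's 95% limit in 19 pairs of a group and a measure, 14.2% of the pairs tested, which fell in 11 groups. Chance alone flags about 1 pair in 20. In training CM mice at month 0, mouse 3334 stood apart with Oas2 at 6.88 and Psmb8 at 6.92 log2 CPM. The members' median of mouse 3338 stood apart at 0.68 at month 2 and at -1.93 at month 4. Among the last training libraries mouse 3368 was low in Stat2 (4.19) and Ly6e (8.28), with hemoglobin at 21.7% of reads. At leukemia mouse 2718 was low in Mx1 (-6.30, 0 reads) and mouse 2684 in Bst2 (2.99).

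In validation CM mice the members' median stood apart for mouse 2690 at month 1 (0.82), mouse 2731 at month 2 (-1.45) and mouse 2684 at month 4 (-1.30). At month 0 mouse 2690 was low in Stat2 (5.81) and mouse 2731 high in Ifit3 (5.34). Among validation controls at month 0 mouse 2705 stood apart in Mx1 (4.08), Stat2 (5.76) and Ly6e (8.32) and mouse 2692 in Bst2 (4.87). At month 1 control mouse 2683 was low in the members' median (-0.41) and in Bst2 (4.41).

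The change from month 0 to month 1 differed between the arms by a test of the difference itself. In the training cohort it was larger in CM mice for Rsad2 (2.71), Isg15 (2.0) and Isg20 (1.90). In the validation cohort it was larger for Rsad2 (2.67), Isg15 (2.23), Isg20 (1.59), Oas3 (0.94), Ifit1 (0.84), Lgals3bp (0.81), Irf7 (0.56) and Herc6 (0.56) and smaller for Ddx58 (-0.28) and Sp100 (-0.28). With median-ratio scaling training Isg15 (adjusted p = 0.13) and Isg20 (adjusted p = 0.14) and validation Ddx58 (adjusted p = 0.16) and Sp100 (adjusted p = 0.12) missed the threshold. From month 0 to the last training library the change was lower in CM than in Ctrl mice for Rsad2 (-3.46), Isg20 (-2.77), Ifit1 (-2.35), Mx2 (-2.26), Ifit2 (-2.14), Oas2 (-2.14), Ifit3 (-1.98), Mx1 (-1.48) and Irf7 (-1.41), and higher for Ifih1 (1.17), which median-ratio scaling did not call.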

How the results depend on the processing

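Members called kept their count within 1.5 times under most alternatives, the leukemia comparisons under all that were run, but equal counts hid lost and gained calls under median-ratio scaling, given beside each result. Median-ratio scaling gave 0 members at month 3 of the training arms, 0, 7, 0 and 15 in training controls at months 3, 4, 5 and 7, and 25 for the late change between arms. With a prior count of 2, 2 members were called in controls at month 3, and with a mean log2 CPM above 1, 1 at month 5. With all months in 1 model with the mouse as replicate block, the training arms gave 2, 0, 0 and 2 members at months 1, 2, 3 and 6. Without the replicate block 0 and 1 were called in training controls at months 3 and 5 and 3 in validation controls at month 1, and the block changed no other count by over 1.5 times.

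With the red cell marker mean as covariate, chosen after the data were seen, 0 members were called at months 1, 2 and 3 of the training arms and 0 at month 1 of the validation arms. At month 1 differences reversed for training Rsad2 (-0.27), Isg15 (-0.47) and Isg20 (-0.84) and for validation Isg15 (-0.28), Oas3 (-0.35), Irf7 (-0.059), Samd9l (0.031) and Ddx58 (0.026). The red cell marker mean itself differed between the arms at month 1, so the 2 cannot be told apart in these fits. The cause was not tested. Fits to month 0 and the month compared alone, also chosen after the data were seen, called 8, 15, 34 and 38 members in training controls at months 2, 3, 4 and 7. Those fits estimate the spread from fewer libraries. The voom alternative was not run for the late change between arms.

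Leaving out each mouse gave 2 to 5 members at month 1, 1 to 10 at month 2, 0 to 1 at month 3 and 0 to 3 at month 5 of the training arms, and 10 to 13 at month 1 of the validation arms. In training controls it gave 0 to 2, 5 to 30, 0 to 1, 36 to 38, 11 to 24, 37 to 38, 37 to 38 and 38 at months 3 to 10, and 6 to 10 in validation controls at month 1. In CM mice it gave 6 to 17 (training) and 13 to 17 (validation) at month 1. For the last training library it gave 28 to 31 against month 0 and 23 to 29 against month 1, and for leukemia 35 to 36 and 34 to 35. The change between arms to month 1 gave 0 to 3 and 6 to 12, and the late change 1 to 21. Depth limits the lowest members, since at leukemia Mx1, Mx2 and Oas2 reach 0 reads in a library.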

Other observations

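Single libraries stood apart in these genes in ways that belong to no comparison above. Ctrl mouse 2702 had a members' median of -1.05 at month 6, the lowest of the 48 validation Ctrl libraries, with Kit at 2.10 log2 CPM. Ctrl mouse 3342 had a members' median of 0.65 at month 1, the highest of the 77 training Ctrl libraries, with Oas2 at 7.09 and Kit at 4.95 log2 CPM. Kit at 4.95 was also the highest of those 77 libraries. CM mouse 3334 had the highest value of the training cohort before poly(I:C), a members' median of 0.74 at month 0.

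Ube2l6 and Nt5c3, which were higher in CM blood at month 1 in both cohorts, were also higher in the last training libraries or at leukemia: Nt5c3 by 2.15 and 1.5 and, in the training cohort, Ube2l6 by 1.45 on the log2 scale.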
